A study of Mus musculus with 13 samples.

Results

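The cell cycle and DNA replication genes described here were 43 of the 55487 genes in the count tables. They were chosen by name as established cell cycle genes and fell into 2 sets. The 15 G1/S members act at the entry into and during DNA replication, and the 28 G2/M members act in the preparation and execution of mitosis. Each of the 43 symbols matched 1 Ensembl gene, and all 43 passed the filter on low counts in each comparison.

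Poly-A RNA was sequenced from mouse embryonic fibroblasts (MEFs), cells grown out of mouse embryos, before (primary) and after (immortalized) spontaneous immortalization. The question was how expression differs between these states. The 13 libraries formed 4 groups. The WT primary group held clones 3, 4 and 5, and the WT immortalized group held the 3 lines with the same clone numbers. The Prkd3-/- primary group held clones 13, 14 and 15, and the Prkd3-/- immortalized group held 4 lines, 13, 13a, 14 and 15. Prkd3 encodes protein kinase D3, a serine/threonine kinase. All groups were grown in medium with 10% fetal calf serum (FCS), and the lines arose from cultures that had become senescent by serial passage and were then moved to 20% FCS, with the WT lines returned to 10% FCS once established. No immortalizing gene was added to any group. The WT cultures came from different embryos, 1 line per clone, so each line is 1 outcome of immortalization. Strain, embryonic age, the passage of each library and the density of the cultures at harvest were not given in the sources used here, nor was the relation of line 13a to line 13. Line 13a was set against the primary culture of clone 13, whose number it carries.

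Progress through the cell cycle is driven by cyclin-dependent kinases (CDKs) whose cyclin partners are made and destroyed in turn. E2F factors drive the genes for DNA replication as cells pass from G1 into S phase, and the MuvB complex, with MYBL2 and FOXM1, drives the genes for mitosis, so both sets are low in resting cells and high in dividing cultures. Primary MEFs divide for a few passages and then arrest, and lines that grow again arise by overcoming that arrest. In RNA from a whole culture, fewer dividing cells and less mRNA per cell cannot be told apart.

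Promoters are shown because the members of each set moved together between libraries. RefSeq promoter windows (GRCm38.p6), 250 bases before to 50 bases after the start of a gene, were present for 34 of the 43 members. The members with no entry were Ccne2, Mcm4, Gmnn, Ccna2, Aurkb, Kif20a, Tpx2, Foxm1 and Cdc25c. The windows printed are those of Rrm2 and Pcna in the G1/S set and Cdc20 and Plk1 in the G2/M set, the members with an entry that had the highest level per length of transcript in primary WT cultures. Mcm6 was added, after its matches were seen, as the G1/S member with the most E2F matches. The windows are Rrm2 at chr12:24708004-24708303 on the plus strand, Pcna at chr2:132253131-132253430 on the minus strand, Mcm6 at chr1:128359656-128359955 on the minus strand, Cdc20 at chr4:118437294-118437593 on the minus strand and Plk1 at chr7:122159185-122159484 on the plus strand. Each is written 5′ to 3′ on the strand of its gene, and capitals mark matches, on either strand, to the cell cycle homology region (CHR, TTTGAA), the CCAAT box (CCAAT) or an E2F site (TTTGGCGC, TTTCCCGC, TTTGCCGC or TTTCGCGC).
Rrm2: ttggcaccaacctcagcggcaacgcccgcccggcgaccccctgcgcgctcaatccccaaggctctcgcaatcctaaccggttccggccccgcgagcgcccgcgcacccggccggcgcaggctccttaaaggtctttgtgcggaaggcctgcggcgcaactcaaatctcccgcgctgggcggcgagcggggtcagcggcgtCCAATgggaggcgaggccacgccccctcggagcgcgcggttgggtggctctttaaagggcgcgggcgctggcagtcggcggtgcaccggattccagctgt
Pcna: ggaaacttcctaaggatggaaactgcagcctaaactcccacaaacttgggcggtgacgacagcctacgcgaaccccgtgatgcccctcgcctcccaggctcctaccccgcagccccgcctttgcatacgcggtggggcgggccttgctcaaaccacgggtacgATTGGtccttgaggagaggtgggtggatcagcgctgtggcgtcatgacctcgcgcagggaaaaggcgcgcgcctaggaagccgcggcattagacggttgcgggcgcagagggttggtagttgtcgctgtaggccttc
Mcm6: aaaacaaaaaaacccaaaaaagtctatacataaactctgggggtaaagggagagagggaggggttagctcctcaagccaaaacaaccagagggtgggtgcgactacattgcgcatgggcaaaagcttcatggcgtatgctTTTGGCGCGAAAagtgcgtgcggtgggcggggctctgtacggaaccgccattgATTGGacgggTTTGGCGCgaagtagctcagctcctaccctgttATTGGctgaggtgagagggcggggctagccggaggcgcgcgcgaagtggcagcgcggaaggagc
Cdc20: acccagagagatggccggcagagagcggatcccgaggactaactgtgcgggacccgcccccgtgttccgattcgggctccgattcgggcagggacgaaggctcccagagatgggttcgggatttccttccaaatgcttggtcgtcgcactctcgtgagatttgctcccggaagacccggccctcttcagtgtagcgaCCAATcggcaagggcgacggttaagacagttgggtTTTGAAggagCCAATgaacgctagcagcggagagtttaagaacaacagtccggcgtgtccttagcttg
Plk1: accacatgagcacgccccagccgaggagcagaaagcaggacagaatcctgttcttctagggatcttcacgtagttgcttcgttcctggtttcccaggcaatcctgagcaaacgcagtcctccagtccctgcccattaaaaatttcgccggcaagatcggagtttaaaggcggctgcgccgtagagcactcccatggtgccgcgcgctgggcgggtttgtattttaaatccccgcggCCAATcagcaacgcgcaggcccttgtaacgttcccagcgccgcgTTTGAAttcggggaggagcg

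The Cdc20 window held a CHR match starting 18 bases before the start and CCAAT matches on both sides of it, and the Plk1 window held a CCAAT match 14 bases before the start and a CHR match at position 31 after it. The Mcm6 window held 3 E2F matches, 2 of which overlap on opposite strands. Rrm2 and Pcna held a CCAAT match and none of the other letters searched. A CHR match was present in 14 of the 22 G2/M members with an entry (63.6%), in 1 of 12 G1/S members (8.33%, Mcm2) and in 20.2% of the 27025 genes with a window. All 14 of those G2/M members also held a CCAAT match, a pair found in 7.97% of all genes. An E2F match was present in 7 of 12 G1/S members (58.3%: Cdc6, Cdt1, Cdc25a, Mcm3, Mcm5, Mcm6 and Mcm7), in 1 of 22 G2/M members (4.55%, Cdk1) and in 2.6% of all genes. A CCAAT match alone separated the sets less, with 66.7% of G1/S members, 77.3% of G2/M members and 41.1% of all genes. These matches are letters in a window and carry no test.

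The libraries held 35273408 to 100441756 counts, so at the shallowest library 3 counts correspond to 0.085 CPM (counts relative to the library total). Expression is given as CPM scaled by the trimmed mean of M-values over the 13 libraries. The 3 primary WT libraries differed by a coefficient of variation of only 4.19 to 6.88% beyond sampling noise, against 46.6 to 54.5% among WT lines, 16.3 to 43.2% among Prkd3-/- primary cultures and 50.7 to 79.5% among Prkd3-/- lines. Prkd3 was counted at 33.6 to 61.0 CPM in Prkd3-/- libraries and at 69.2 to 93.7 CPM in WT libraries, and counts over the whole gene do not show which exons remain. The summed CPM of 10 fibroblast markers was 18600 to 67900, with 10 of them above 1 CPM in every WT primary library and 7 in every line of either genotype. Line 13 had the lowest fibroblast sum, 18550, with Thy1 at 4.85 CPM against 524 CPM and Pdgfra at 10.2 CPM against 101.8 CPM in its primary culture. Col1a1, Col1a2, Col3a1, Dcn, Lum and Fap were also lower in it, but Pdgfrb (221 against 214 CPM) and Vim (4666 against 4887 CPM) were nearly level. Thy1 was low in line 15 and WT line 3 too, at 29.0 and 36.3 CPM against 453 and 363 CPM in their primary cultures. Line 13 also had the highest sum of 6 epithelial markers, 129.1 CPM, nearly all of it Krt19, against 0.525 to 60.0 CPM in the other libraries. The summed CPM of 10 macrophage markers was 1450 to 1480 in WT primary cultures and 57.9 to 135 in WT lines. In Prkd3-/- primary clones 13, 14 and 15 it was 156, 2040 and 383, and in Prkd3-/- lines it was 12.7 to 328. All 10 macrophage markers were above 1 CPM in every primary library, but only 7 were in every WT line and 1 in every Prkd3-/- line. Ptprc, Adgre1, Tyrobp, C1qa, C1qc and Cx3cr1 had 0 counts in line 13. Their part in the results was not tested. WT and Prkd3-/- libraries came in separate tables, so genotype and table cannot be told apart. Where the labels do not say that Prkd3-/- cultures came from separate embryos, p-values measure only the spread between these samples.

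A few libraries set the extremes of the 43 genes and are named here before any comparison. Prkd3-/- line 13 had the highest level of all 13 libraries in 43 of 43 members, a place it took in 23.9% of the 21197 genes tested. WT line 5 had the lowest of all 13 in 41 of 43 members, against 9.31% of all genes, and the exceptions were Tyms (lowest in WT line 3) and Ccne1 (lowest in Prkd3-/- line 14). Prkd3-/- primary clone 14 was the lowest of its group of 3 in 43 of 43 members, against 38.7% of all genes. The mean log2 CPM over the members of a set, a score with no test attached, gives the same picture. The G1/S score was 4.91, 4.90 and 5.0 in WT primary clones 3, 4 and 5 and 5.03, 4.47 and 3.87 in the WT lines of the same numbers. It was 5.36, 4.83 and 5.37 in Prkd3-/- primary clones 13, 14 and 15 and 6.81, 5.23, 4.99 and 5.54 in Prkd3-/- lines 13, 13a, 14 and 15. The WT lines spanned values from just above the primary cultures to well below them, and the Prkd3-/- lines spanned more than any other group. The G2/M score was 4.86, 4.88 and 5.02 in the WT primary cultures and 5.18, 4.58 and 3.55 in the WT lines. It was 5.74, 4.58 and 5.60 in the Prkd3-/- primary cultures and 6.91, 4.79, 5.13 and 5.82 in the Prkd3-/- lines. In both sets the ranges of the primary and immortalized libraries of a genotype overlapped.

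**Figure D1:**
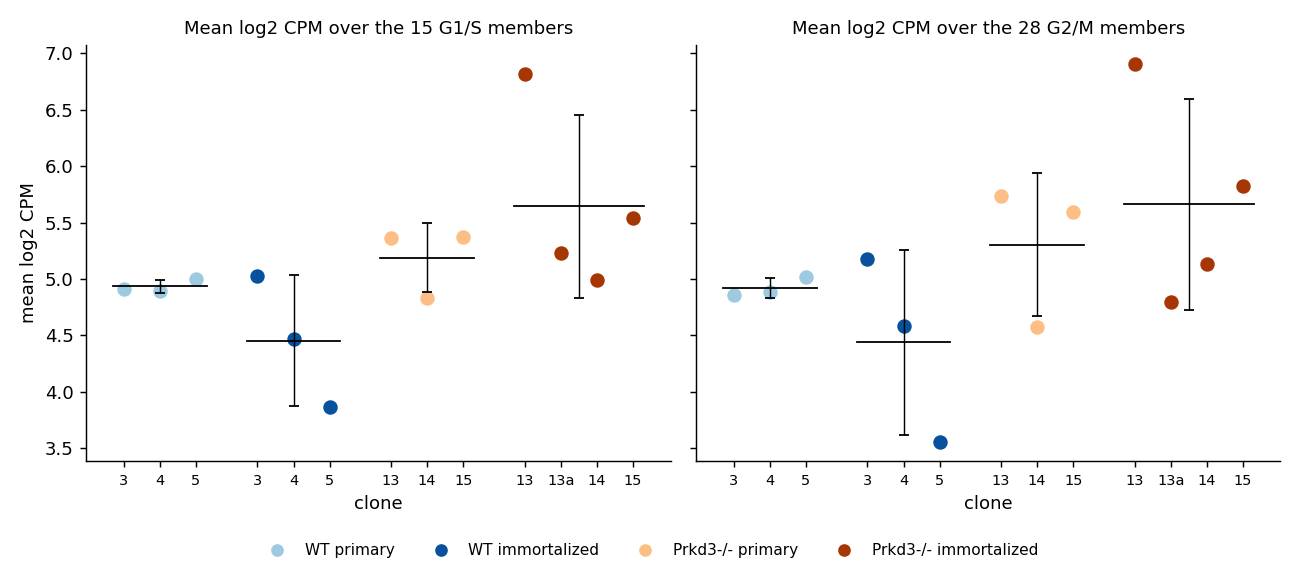
Mean log2 CPM over the 15 G1/S members (left) and the 28 G2/M members (right) in each of the 13 libraries, by clone, with the group mean (horizontal line) and SD (error bar, n = 3, or 4 for Prkd3-/- lines). Prkd3-/- line 13 (6.81 and 6.91) is the highest point and WT line 5 (3.87 and 3.55) the lowest in both panels, while the WT primary cultures lie close together.

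In WT MEFs, immortalized lines did not differ from primary cultures in any of the 43 members at the thresholds of the study, which were 0.01 for the adjusted p-value together with a 2-fold change. The 3 lines instead ran from slightly above to far below their primary cultures in 1 order, clone 3 above clone 4 above clone 5, in 13 of 15 G1/S and 27 of 28 G2/M members. Line 3 was the highest WT line in 41 of 43 members (36.3% of all genes), and line 5 the lowest in 41 (33.5% of all genes). The share of all genes in the full order was not counted. Pcna, the sliding clamp of DNA polymerases, was at 36.7, 39.2 and 38.6 CPM in primary clones 3, 4 and 5 and at 31.9, 27.5 and 17.2 CPM in the lines. Every line was below every primary culture. Gmnn, which encodes geminin, the inhibitor of the licensing factor CDT1, was at 7.36, 8.51 and 8.58 CPM in primary cultures and at 6.01, 3.81 and 2.01 CPM in lines, again with no overlap. Rrm2, the regulated subunit of ribonucleotide reductase, was at 64.2, 64.9 and 74.5 CPM in primary cultures and at 63.7, 52.3 and 31.0 CPM in lines. The groups did not overlap there either, but line 3 lay within 1 CPM of the lowest primary culture.

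Mki67, the proliferation marker Ki-67, was at 148, 155 and 180 CPM in primary cultures and at 218, 142 and 43.2 CPM in lines, so line 3 was above all primary cultures and line 5 far below them. Ccna2, cyclin A2, was at 65.5, 66.5 and 77.1 CPM in primary cultures and at 70.9, 57.8 and 18.7 CPM in lines. Cdk1, the kinase that starts mitosis, was at 43.7, 43.8 and 48.9 CPM in primary cultures and at 45.8, 51.8 and 26.9 CPM in lines. It was the only G2/M member with more in line 4 than in line 3. It lies on chromosome 10, which had a shift of 0.46 (log2) in line 4. A chromosome shift here is the median difference of its genes from the mean of the primary cultures of that genotype. The same median over all autosomal genes was subtracted from it. The part of that shift was not tested. Tyms, thymidylate synthase, was nearly level at 20.0, 20.6 and 21.9 CPM in primary cultures and 18.8, 20.7 and 19.9 CPM in lines. Ccne1, cyclin E1, was at 27, 27.1 and 25.2 CPM in primary cultures and at 34.5, 18.6 and 26.5 CPM in lines, so it did not follow the order of the other members.

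Set against its own primary culture, each of the 3 lines differed. The median fold of a line over its primary culture across all genes was 1, 0.991 and 0.999 in lines 3, 4 and 5. Line 3 was above its primary culture in 11 of 15 G1/S and 25 of 28 G2/M members, with median differences of 0.18 and 0.28 on the log2 CPM scale. Line 4 was below in 13 and 25 members, with medians of -0.45 and -0.29. Line 5 was below in 14 and 28 members, with medians of -1.26 and -1.54, and its deepest G2/M differences were in Mki67 and Ccna2, at -2.06 and -2.05. In 6 members, Pcna, Rrm2, Gmnn, Aurkb, Cenpa and Birc5, all 3 lines were below their own primary cultures, against 21.2% of all genes, and in 0 members were all 3 above, against 18.1% of all genes. The fold of line 3 over line 5 had a median of 2.22 over G1/S members and 3.07 over G2/M members, with the widest in Mki67 (5.05-fold), while the median over all genes was 1.

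**Figure D2:**
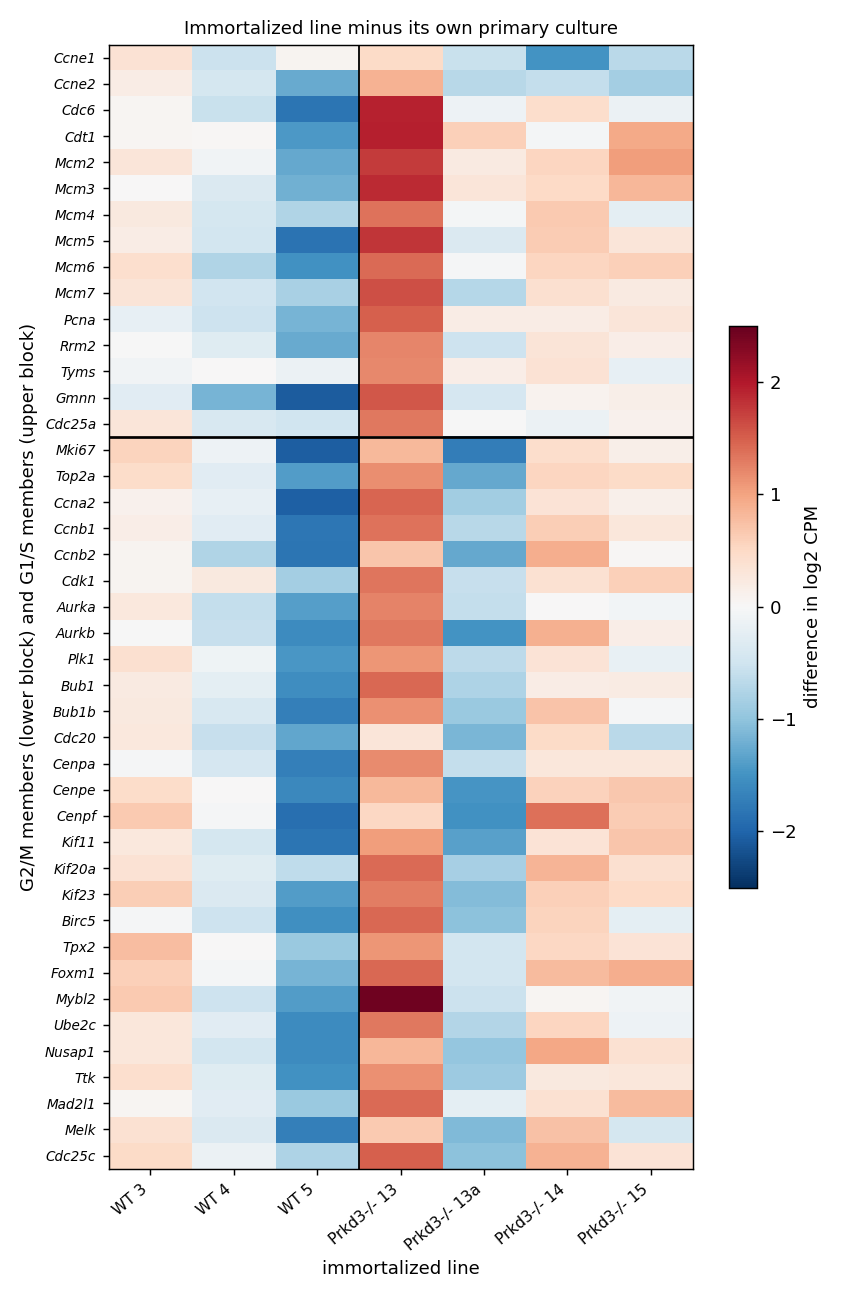
Difference in log2 CPM between each immortalized line and the primary culture of its clone number (columns) for each of the 43 members (rows; 15 G1/S above the thick line, 28 G2/M below). Red is higher in the line and blue lower; Prkd3-/- line 13 is red in all 43 rows, WT line 5 is blue in all but Ccne1, and line 13a is blue in all 28 G2/M rows.

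Of the 43 members, edgeR's quasi-likelihood test called 0 (1.82% of the 19836 genes tested were called), and DESeq2 and limma also called 0. At an unadjusted p under 0.05, edgeR counted 2 members, Gmnn and Pcna, both lower (19.7% of all genes passed that limit in either direction), DESeq2 counted 2 and limma 5. The Log2FC of Gmnn was -1.05 (SE 0.389, adjusted p-value 0.218 by edgeR), with a 95% interval of -2.01 to -0.09, and that of the smallest-p G2/M member Ccnb2, cyclin B2, was -0.69 (SE 0.395, adjusted p-value 0.401). The median Log2FC was -0.38 over the G1/S and -0.35 over the G2/M members, against 0.04 over all genes, and 41 of 43 were negative. Groups did not overlap in 3 members, all lower in lines (17.4% of all genes), and in 0 members were all lines higher (13.9% of all genes). Without line 3, the highest WT line in 41 of 43 members, 22 members had an unadjusted p under 0.05 by edgeR, all lower. In that fit 6119 of 20370 genes passed this limit in either direction. Groups then did not overlap in 34 members (26.3% of all genes were lower in every library). Without line 5 the medians came to -0.10 and -0.02. With the clone number as a replicate block, 0 members and 0 of all genes were called by edgeR, against 361 of all genes without it. The median SE of a Log2FC was 0.372 over the members and 0.221 over all genes.

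In Prkd3-/- MEFs, the 4 lines were centred above their primary cultures, but line 13 carried most of that difference. Mcm2, a subunit of the replicative helicase, was at 71.7, 45.7 and 68.8 CPM in primary clones 13, 14 and 15 and at 239, 84.2, 66.3 and 143 CPM in lines 13, 13a, 14 and 15. Mcm3, another helicase subunit, was at 64.0, 40 and 62.3 CPM in primary cultures and at 233, 79.2, 56.2 and 110 CPM in lines. Both, and Pcna, were higher in every line than in the primary culture of its own number (8.16% of all genes were), but for Mcm2 and Mcm3 line 14 lay within the range of the primary cultures. Pcna was at 39.5, 38.0 and 41.7 CPM in primary cultures and at 111, 45.2, 42.9 and 51.5 CPM in lines, the only member whose groups did not overlap. Gmnn was nearly equal in the primary cultures, at 8.83, 8.55 and 8.64 CPM, and was at 25.9, 6.59, 9.04 and 9.55 CPM in lines, with line 13a below and line 13 far above.

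Cdc6 and Cdt1, which load the helicase onto origins, were at 47.8 and 72.8 CPM in line 13. Cdc6 was at 12.6, 6.26 and 11.5 CPM in primary cultures and at 11.5, 8.55 and 10.5 CPM in lines 13a, 14 and 15, so outside line 13 no line exceeded the highest primary culture. Cdt1 was at 19, 15.2 and 19.4 CPM in primary cultures and at 28.5, 14.6 and 37.4 CPM in those lines, with lines 13a and 15 also above every primary culture. Mybl2, the B-Myb factor that switches on mitotic genes, was at 10.7, 5.74 and 11.9 CPM in primary cultures and at 58.2, 7.34, 5.92 and 11.3 CPM in lines, likewise with only line 13 outside the primary range. Mki67 was at 293, 67.2 and 244 CPM in primary cultures and at 511, 88.1, 91.4 and 270 CPM in lines. Cdc20, the activator of the anaphase-promoting complex, was at 91.2, 41.1 and 86.3 CPM in primary cultures and at 112, 41.5, 57.4 and 54.0 CPM in lines, the smallest excess of line 13 in the G2/M set. It lies on chromosome 4, whose shift, taken in the same way, was -0.37 in line 13 and -0.60 in line 15. The part of those shifts was not tested. Ccne1 was at 36.4, 33.0 and 41.4 CPM in primary cultures and at 50.4, 24.7, 11.7 and 25.8 CPM in lines, with 3 of 4 lines below every primary culture. Ccne2, cyclin E2, showed the same arrangement at 23.5, 19.5 and 24.6 CPM in primary cultures and 42.9, 14.5, 13 and 13.7 CPM in lines. Ccne2 also lies on chromosome 4. Ccne1 lies on chromosome 7, with a shift of -0.61 in line 14. Mcm2, Mad2l1 and Foxm1 lie on chromosome 6, with a shift of 0.55 in line 15. Mcm4 lies on chromosome 16, with a shift of -0.53 in that line. Kif20a and Cdc25c lie on chromosome 18, with a shift of 0.42 in line 13. The part of these shifts was not tested either.

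**Figure D3:**
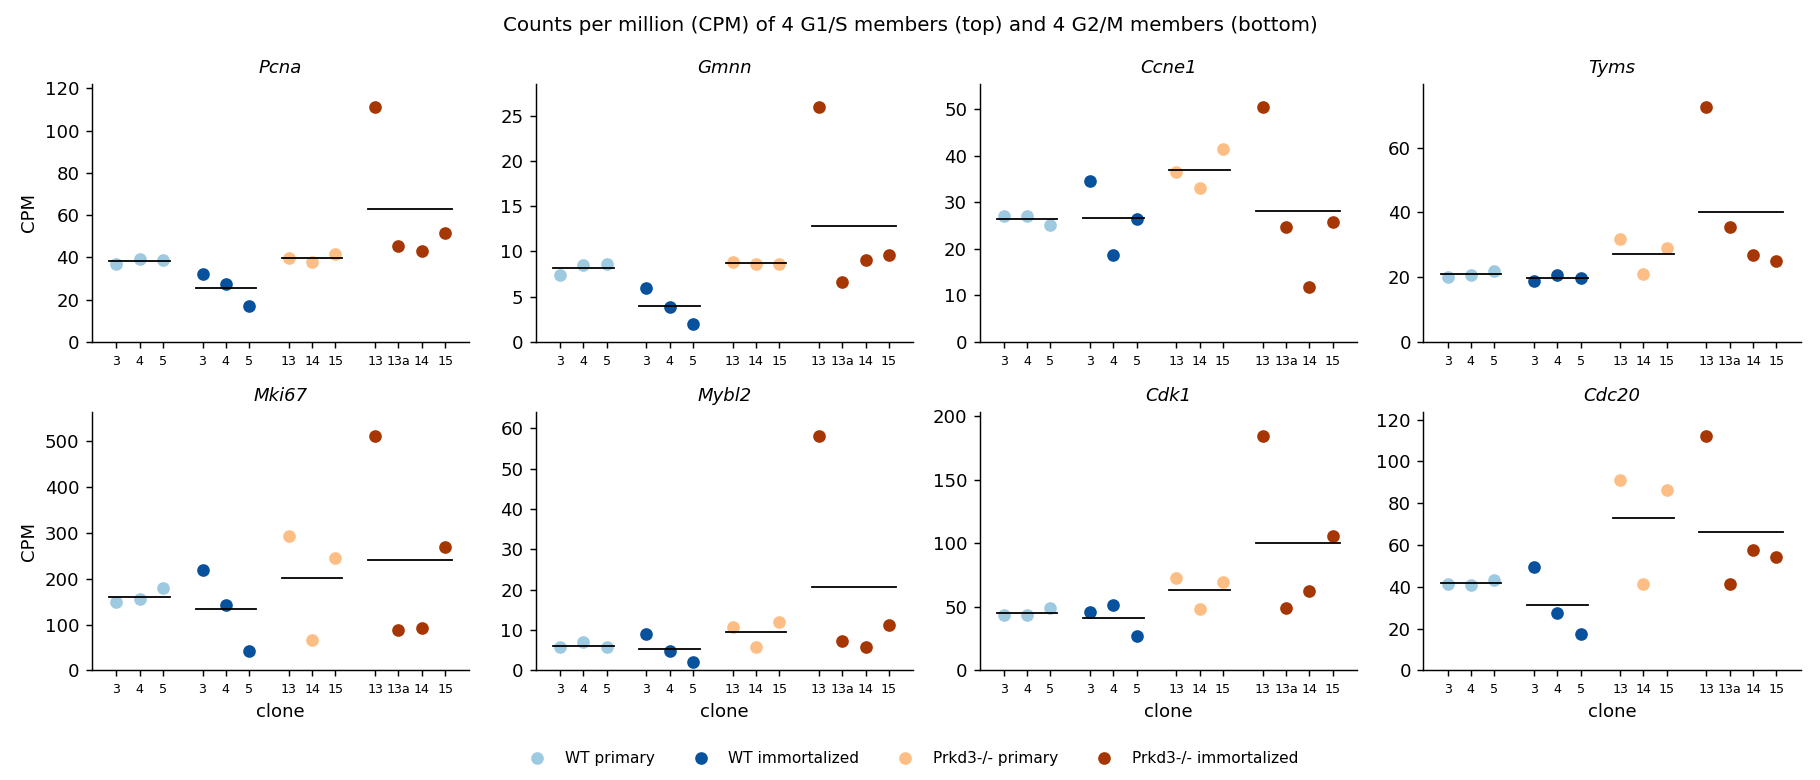
CPM of 4 G1/S members (Pcna, Gmnn, Ccne1 and Tyms, top) and 4 G2/M members (Mki67, Mybl2, Cdk1 and Cdc20, bottom) in each library by clone, with the group mean as a line. Line 13 stands above all other libraries in each panel (Pcna 111 CPM, Mybl2 58.2 CPM), and Pcna is the member with every WT line below and every Prkd3-/- line above its primary cultures.

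Lines 13 and 13a carry the same clone number and lay at opposite ends of the Prkd3-/- group in the G2/M set. All 43 members were higher in line 13, with a median of 2.84-fold over G1/S and 4.17-fold over G2/M members, from 2.04-fold in Ccne1 to 7.92-fold in Mybl2, while the median over all genes was 1.02. Relative to primary clone 13, line 13 was higher in 15 of 15 G1/S and 28 of 28 G2/M members, with median log2 differences of 1.49 and 1.21. Line 13a was lower in 10 of 15 G1/S members (median -0.05) and in 28 of 28 G2/M members (median -0.92, down to -1.73 in Mki67). The G2/M score minus the G1/S score was -0.435 in line 13a, -0.316 in WT line 5 and -0.256 in Prkd3-/- primary clone 14. In the other libraries it lay between -0.054 (WT primary clone 3) and 0.371 (Prkd3-/- primary clone 13). Line 14 was higher than its primary culture in 11 and 28 members, with medians of 0.36 and 0.53, and line 15 in 10 and 20 members, with medians of 0.16 and 0.28. The primary culture of clone 14 was itself low, by a median of 1.51-fold over G1/S and 2.17-fold over G2/M members relative to clone 13, and by 4.35-fold in Mki67. It also held the highest summed macrophage markers, 2040 CPM, whose part in this was not tested.

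Of the 43 members, edgeR called 0 between Prkd3-/- lines and primary cultures (0% of the 20298 genes tested were called), and DESeq2 and limma also called 0. At an unadjusted p under 0.05, edgeR counted 1 member, Mcm2 (6.56% of all genes), DESeq2 counted 3 and limma 1. The Log2FC of Mcm2 was 1.08 (SE 0.453, adjusted p-value 0.749 by edgeR), and that of Mad2l1, a spindle checkpoint protein and the smallest-p G2/M member, was 0.76 (SE 0.432, adjusted p-value 0.828). The median Log2FC was 0.64 over G1/S and 0.51 over G2/M members, against 0.07 over all genes, with 40 of 43 positive. Only Pcna had every line higher (4.19% of all genes), and in 0 members was every line lower (5.26% of all genes). The G2/M score difference, 0.36 with all libraries, was -0.05 without line 13 and -0.002 without primary clone 14. Without line 13 the median Log2FC came to 0.08 and -0.06, and Ccne1 and Ccne2 were then lower in every line (8.68% of all genes were). With the replicate block, 0 members and 946 of 20298 genes had an unadjusted p under 0.05 by edgeR.

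The 2 state differences were compared with an interaction term, Prkd3-/- minus WT, which edgeR fitted over all 13 libraries. It was positive in 42 of 43 members, Ccne1 being the exception, with a median of 1.22 (log2) over G1/S and 0.89 over G2/M members, against 0.06 over all genes. No member passed an adjusted p-value under 0.05 by edgeR (0% of the 21197 genes tested did), and DESeq2 and limma also called 0. At an unadjusted p under 0.05, edgeR counted 3 members, Mcm3, Pcna and Gmnn (3.97% of all genes), DESeq2 counted 4 and limma 7. The interaction of Pcna was 1.24 (SE 0.467, adjusted p-value 1 by edgeR) and that of Mad2l1 was 1.11 (SE 0.557, adjusted p-value 1). Without Prkd3-/- line 13 the medians were 0.63 and 0.27, and without WT line 5 they were 0.85 and 0.54, so each of those libraries set part of the size. With the replicate block, 1 member and 426 of 21197 genes had an unadjusted p under 0.05 by edgeR.

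Between primary cultures, all 43 members were on average higher in Prkd3-/- than in WT, and clone 14 decided how far apart the groups lay. In Ccne1 and Ccne2 the groups did not overlap, with 25.2 to 27.1 CPM of Ccne1 in WT against 33.0 to 41.4 CPM in Prkd3-/- cultures. Rrm2 was at 124, 69.2 and 143 CPM in Prkd3-/- clones 13, 14 and 15, of which only clone 14 lay within the WT range of 64.2 to 74.5 CPM. Cdk1 was at 73.0, 48.1 and 69.7 CPM, with clone 14 within the WT range of 43.7 to 48.9 CPM. Plk1, a kinase of spindle assembly, was at 77.9, 27.4 and 74.1 CPM against 37.7 to 45.4 CPM in WT, so that clone 14 lay below and the other 2 above all WT cultures.

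At the thresholds of the study edgeR called 0 of 43 members between primary cultures (0.765% of the 20403 genes tested), and DESeq2 and limma also called 0. At an unadjusted p under 0.05, edgeR counted 11 members, all higher in Prkd3-/- (24.1% of all genes, either direction), DESeq2 counted 15 and limma 13. The Log2FC of Ccne1 was 0.50 (SE 0.102, adjusted p-value 0.044 by edgeR), and that of Cdk1 was 0.50 (SE 0.162, adjusted p-value 0.126 by edgeR). Ccne1 was the only member with an adjusted p-value under 0.05 by edgeR. By DESeq2 its adjusted p-value was 0.00622, and the lowest of a G2/M member was 0.0487. The adjusted p-value of Ccne1 by edgeR ranged from 0.0611 to 0.205 without any 1 of 5 libraries (WT clone 3, 4 or 5, or Prkd3-/- clone 13 or 15) and was 0.00163 without clone 14. In a joint edgeR fit of all 13 libraries, 0 members and 1030 of 21197 genes had an unadjusted p under 0.05. The lowest adjusted p-value of a member in that fit was 0.997. The medians were 0.27 over G1/S and 0.52 over G2/M members, against 0.01 over all genes. Every Prkd3-/- culture was higher in 2 members (15.5% of all genes) and every one lower in 0 (18.8% of all genes). Without clone 14, the lowest of its group in all 43, all 15 G1/S and 28 G2/M members had both remaining Prkd3-/- cultures above all WT cultures (27.4% of all genes), and edgeR called 2, Cdc20 and Cenpe, a kinesin of the kinetochore, among 1456 of 20428 genes.

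Between immortalized lines, all 43 members were higher in Prkd3-/- on average, with medians of 1.54 (Log2FC) over G1/S and 1.35 over G2/M members against 0.06 over all genes. Rrm2 was at 289, 87.1, 86.2 and 160 CPM in Prkd3-/- lines 13, 13a, 14 and 15, all above the 31.0 to 63.7 CPM of the WT lines. Mcm6, a helicase subunit, was at 284, 104, 103 and 152 CPM against 25.6 to 88.0 CPM, also without overlap. Mad2l1 was at 98.1, 31.1, 32.3 and 61.9 CPM against 13.7 to 26.9 CPM. In 12 members every Prkd3-/- line was higher (4.51% of all genes): the G1/S members Mcm2, Mcm3, Mcm4, Mcm6, Pcna, Rrm2, Tyms and Gmnn, and the G2/M members Ccnb1, Cenpa, Ube2c and Mad2l1. In 0 members was every line lower (4.19% of all genes). Mki67 overlapped, at 511, 88.1, 91.4 and 270 CPM against 43.2 to 218 CPM.

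None of these differences was called, and edgeR called 0 of 43 members (0.0406% of the 19683 genes tested, 8 genes), and DESeq2 and limma also called 0. At an unadjusted p under 0.05, edgeR counted 20 members, all higher in Prkd3-/- (6.88% of all genes, either direction), DESeq2 counted 29 and limma 21. The Log2FC of Rrm2 was 1.67 (SE 0.51, adjusted p-value 0.649 by edgeR), with a 95% interval of 0.47 to 2.87, and that of Mad2l1 was 1.45 (SE 0.48, adjusted p-value 0.67). Without line 13 edgeR counted 8 G1/S and 2 G2/M members at that limit (1329 of 19442 genes), with medians of 0.89 and 0.77. Without WT line 5 it counted 1 member (853 of 20381 genes), and without WT line 4 it counted 3 (973 of 20594 genes). Between the extremes of the 7 lines, Prkd3-/- line 13 over WT line 5, the median fold was 9.35 over G1/S and 10.3 over G2/M members, from 1.90 in Ccne1 to 27 in Mybl2.

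The remaining members followed these orders, and are given by role. Mcm5, a helicase subunit, was at 47.6, 45.9 and 50.9 CPM in WT primary cultures and at 54.1, 33.4 and 14.2 CPM in WT lines 3, 4 and 5, and at 64.2, 35.8 and 65.7 CPM in Prkd3-/- primary cultures and 223, 49.7, 55.5 and 81.4 CPM in Prkd3-/- lines. Line 13 had 15.7 times the level of WT line 5. Mcm7 and Mcm4, subunits of the same ring, spread less widely among WT lines, from 30.2 to 58.8 CPM and from 43.6 to 75.5 CPM. Cdc25a, a phosphatase that releases CDK2 from inhibition, was at 16.1 to 30.6 CPM in WT lines and at 66.9, 26.7, 19.2 and 33.1 CPM in Prkd3-/- lines 13, 13a, 14 and 15.

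Among the drivers of mitosis, Ccnb1, cyclin B1, was at 22.2, 16.4 and 6.24 CPM in WT lines and at 94.9, 23, 29.7 and 42.0 CPM in Prkd3-/- lines, with no overlap. Aurka, a kinase of the spindle poles, was at 19.9, 12.9 and 7.70 CPM in WT lines and at 79.9, 22.3, 19.9 and 32.8 CPM in Prkd3-/- lines, where line 14 equalled WT line 3. Aurkb, a kinase of the inner centromere, was at 73.9 CPM in line 13 and at 10.5 CPM in line 13a, a 7.02-fold gap that only Mybl2 exceeded. Birc5, survivin, which works with Aurkb, was 5.54-fold apart between those lines. Foxm1, the factor that drives mitotic genes, was at 71.0, 47.1 and 24.2 CPM in WT lines and at 219, 58.6, 55.9 and 143 CPM in Prkd3-/- lines.

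Of the checkpoint and kinetochore members, Bub1 was at 22.5, 16.1 and 7.08 CPM in WT lines and at 88.9, 19.2, 21.9 and 38.1 CPM in Prkd3-/- lines. Ttk, the checkpoint kinase MPS1, was lower throughout, at 3.66 to 13.4 CPM in WT lines and 8.03 to 33.5 CPM in Prkd3-/- lines. Cenpf, a large kinetochore protein, was at 71.1, 18.2 and 60.1 CPM in Prkd3-/- primary cultures and at 101.5, 25, 47.2 and 92.7 CPM in lines, so lines 13 and 15 lay close together. Cenpe was at 138, 28.4, 37.6 and 108 CPM in the same lines, which likewise formed a high and a low pair. In Cenpe, Cenpf, Kif11 and Foxm1 line 15 lay nearer in CPM to line 13 than to line 14, unlike in the other members.

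Of the motors and spindle proteins, Kif11, which slides spindle microtubules apart, was at 40.9, 26.4 and 11.6 CPM in WT lines and at 123, 23.3, 33.9 and 82.6 CPM in Prkd3-/- lines. Kif23, a motor of the midzone, was at 44.2, 23.5 and 12.1 CPM in WT lines and at 140, 27, 31.0 and 78.0 CPM in Prkd3-/- lines. Tpx2, an activator of Aurka, had the highest excess of WT line 3 over its primary culture, 1.70-fold, at 109 against 64.1 CPM. Top2a, the topoisomerase that untangles chromosomes, was at 195, 117 and 59.0 CPM in WT lines and at 562, 103, 171 and 291 CPM in Prkd3-/- lines. Nusap1 and Melk were 3.48-fold and 3.37-fold apart between lines 13 and 13a.

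Within each of the 4 groups the members varied more between libraries than genes of the same range of level. The median SD of log2 CPM over G1/S and G2/M members was 0.077 and 0.108 among WT primary cultures, against 0.051 for 9858 tested genes in the members' range of level. It was 0.58 and 0.82 among WT lines, against 0.24, and 0.83 and 0.96 among Prkd3-/- lines, against 0.42. Among Prkd3-/- primary cultures it was 0.32 and 0.60, against 0.18. The G2/M median exceeded the G1/S median in all 4 groups, and Gmnn (SD 0.023 in Prkd3-/- primary cultures) and Tyms (0.07 in WT lines) were the steadiest members there.

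**Figure D4:**
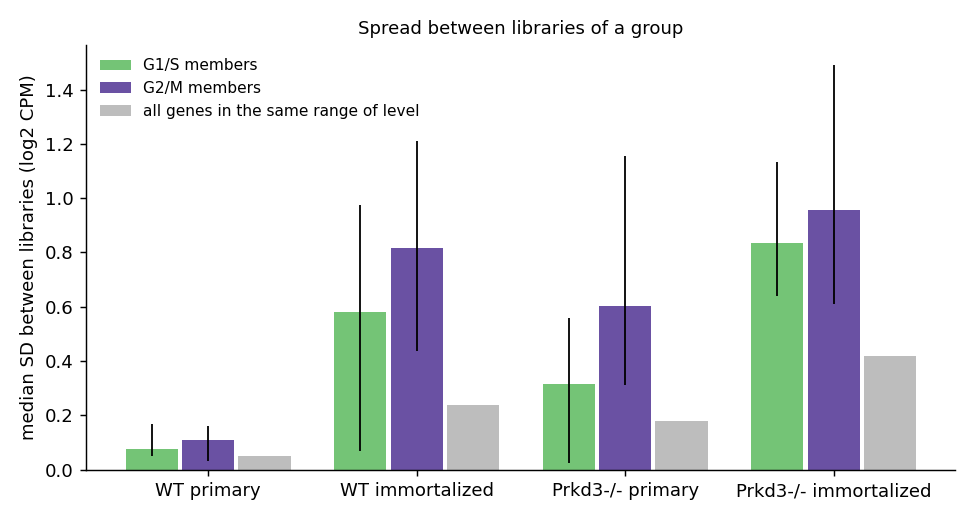
Median SD of log2 CPM between the libraries of a group for the 15 G1/S members, the 28 G2/M members and the 9858 tested genes in the same range of level; vertical lines span the lowest to the highest member. Both sets stand above the reference bar in all 4 groups, for example among WT lines (0.58 and 0.82 against 0.24).

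The inhibitors of CDKs were read from a list of 7 genes. None was called in either state comparison by edgeR. With an unadjusted p under 0.05, edgeR counted 1 lower in WT MEFs, where 19.7% of all genes passed in either direction. In Prkd3-/- MEFs it counted 1 higher and 1 lower, where 6.56% of all genes passed. There Cdkn1b had the smallest p with a Log2FC of 0.72 (SE 0.263, adjusted p-value 0.696). Cdkn2d, the INK4 inhibitor p19, had the smallest p among them in WT MEFs, with a Log2FC of -0.64 (SE 0.114, adjusted p-value 0.0335 by edgeR), at 12.6, 13.4 and 13.8 CPM in primary cultures and 7.86, 9.29 and 8.33 CPM in lines. Cdkn2a, which encodes the inhibitor p16INK4a and the p53 activator p19ARF from overlapping exons, was at 58.2 to 85.9 CPM in the 6 primary cultures and at 78.4, 61.0 and 214 CPM in WT lines 3, 4 and 5. In Prkd3-/- lines 13, 13a, 14 and 15 it was at 0.229, 187, 69.2 and 85.3 CPM. Cdkn2b, which encodes the neighbouring inhibitor p15INK4b, was at 77.6 to 85.9 CPM in primary cultures, at 21.4, 30.4 and 104 CPM in WT lines and at 0.134, 59.2, 32.0 and 23.4 CPM in those 4 Prkd3-/- lines. Line 13, the highest library in all 43 members, thus had 12 counts of Cdkn2a and 7 of Cdkn2b, 254-fold and 160-fold below the lowest other library. WT line 5, the lowest library in 41 members, and line 13a, the lowest Prkd3-/- line in 23 of 28 G2/M members, had the highest CPM of Cdkn2a. In the G1/S set, however, line 13a was the lowest Prkd3-/- line in 3 of 15 members and line 14 in 10. WT line 3, the highest WT line in 41 members, had more Cdkn2a than WT line 4.

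Mtap, the gene next to Cdkn2a on chromosome 4 and read after these values were seen, was at 294 CPM in line 13, above the 67.7 to 174 CPM of the other libraries. Of 8391 genes with at least 10 CPM in each of the other 12 libraries, 4 were at least 100-fold below the lowest of them in line 13: Cdkn2a, Cdkn2b, Svep1 and Wasf3. Cdkn1a, the p53 target p21, was at 110 CPM in line 13 and at 223 to 594 CPM in the other libraries, with 545 CPM in WT line 5. Cdkn1c, p57, was at 0.63 CPM in line 13 and at 7.54 to 81.6 CPM elsewhere. Cdkn1b, p27, was at 64.2 CPM in line 13, inside the 36.3 to 97.3 CPM of the others. Cdkn2c was at 25.7 CPM in line 13, inside the 12.7 to 34.3 CPM of the others, and its lowest level was in WT line 5. Cdkn2d was at 13.2 CPM in line 13, inside the 7.86 to 15.9 CPM of the others. Whether these levels bear on the members' levels was not tested.

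**Figure D5:**
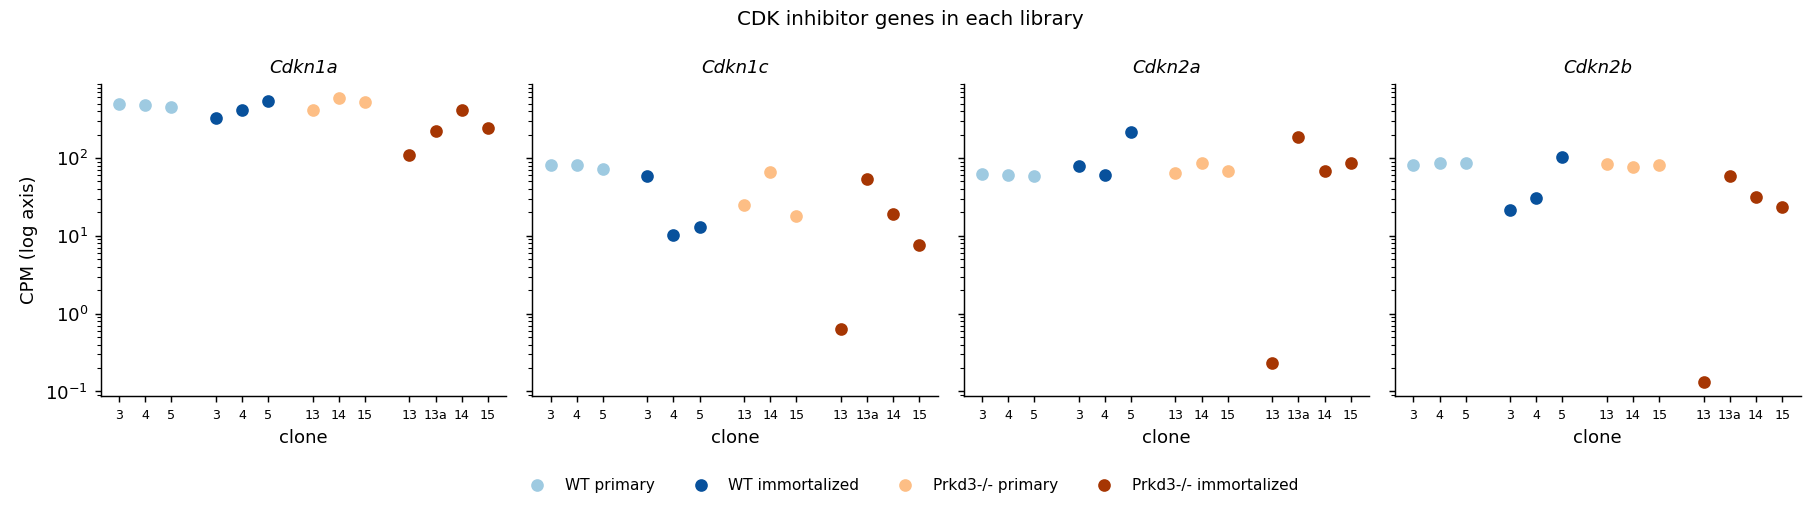
CPM, on a log axis, of the CDK inhibitor genes Cdkn1a, Cdkn1c, Cdkn2a and Cdkn2b in each library by clone. Prkd3-/- line 13 is the lowest library in each panel, at 0.229 CPM of Cdkn2a and 0.134 CPM of Cdkn2b, and WT line 5 has the highest Cdkn2a (214 CPM). Cdkn1b, Cdkn2c and Cdkn2d, in which line 13 lay inside the range of the other libraries, are not shown.

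Other genes of the same processes, 6 lists that hold no member, did not pass the thresholds in either state comparison by edgeR. In WT MEFs the median Log2FC was -0.22 over 17 origin licensing and firing genes, -0.24 over 26 replication fork genes, -0.29 over 9 nucleotide supply genes, -0.30 over 19 kinetochore and checkpoint genes, -0.32 over 19 genes of mitotic motors and the midbody and -0.28 over 17 condensin and cohesin genes. Rfc2, a subunit of the clamp loader that places PCNA on DNA, came nearest with a Log2FC of -0.68 (SE 0.138, adjusted p-value 0.0514 by edgeR), at 32.1, 31.4 and 34.6 CPM in primary cultures and 23.3, 21.0 and 16.9 CPM in lines. The smallest p in the other lists were those of Orc4 (Log2FC 0.19), Dck (-0.97), Spc25 (-0.72), Ckap2 (-0.54) and Smc1a (0.23), with adjusted p-values of 0.334, 0.136, 0.143, 0.129 and 0.174 by edgeR. In Prkd3-/- MEFs the medians of the 6 lists were 0.46, 0.47, 0.31, 0.45, 0.45 and 0.54, and the smallest adjusted p-value, that of the origin firing gene Gins4, was 0.73. The other smallest p there were those of Rpa3, Shmt1, Dsn1, Racgap1 and Ncaph2, with Log2FC of 0.54, 1.21, 0.51, 0.76 and 0.49. The WT comparison counted 8 lower and 2 higher genes of these lists among 107 at an unadjusted p under 0.05 by edgeR, where 19.7% of all genes passed, and the Prkd3-/- comparison counted 1, where 6.56% of all genes passed.

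Per length of transcript (RPKM, the CPM divided by the length in kilobases), the members spanned from 24.5 ± 2.08 (SD, n = 3) for Rrm2 to 1.14 ± 0.059 for Cdc25c, a phosphatase that activates CDK1, in WT primary cultures. Cdc20 followed at 22.4 ± 0.787 and Mcm4 at 18.8 ± 1.44, and Mcm4 and Plk1 (18.4 ± 1.96) did not differ beyond their spread. The helicase subunits Mcm3, Mcm5, Mcm6 and Mcm7 lay between 11.2 and 14.7 RPKM, with Mcm2 lower at 7.28 ± 0.35. The factors Foxm1 and Mybl2 were at 8.66 ± 0.645 and 1.32 ± 0.152 RPKM. Some members share exon bases with a neighbour. In the WT libraries, pairs of reads there were assigned to both genes, and whether this held for the Prkd3-/- libraries was not given. The shared part was 29.3% of the exon bases of Kif20a, a kinesin of cytokinesis (with Cdc23). It was 22.8% for Ube2c, the ubiquitin-conjugating enzyme of the anaphase-promoting complex (with Tnnc2). For Ccne2 it was 17.4% (with Ints8), for Cdc25c 12.7% (with Gm3550), for Mcm7 12.6% (with Ap4m1) and for Ccna2 12.5% (with Exosc9). Kif20a was the G2/M member with the smallest difference in WT line 5, at -0.63 (log2).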

How the data were processed

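Poly-A RNA of 13 MEF cultures was measured by paired-end RNA-seq. The authors mapped read pairs to mm10 (GRCm38) with STAR 2.7.10a, converted files with SAMtools 1.18 and counted pairs per Ensembl gene with featureCounts of Subread 2.0.6, and deposited raw counts in 1 table per genotype. Per the file header, WT pairs were counted without strand and given to every gene they overlapped; the options of the Prkd3-/- table were not given in the sources used here. Totals of 35273408 to 100441756 counts per library set the precision, and 0 columns of values were left unmapped to a sample.

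Counts were joined by Ensembl identifier. Genes passing filterByExpr were tested with the quasi-likelihood test of edgeR 4.0.16 in R 4.3.3, with TMM scaling, robust estimation and Benjamini-Hochberg adjustment over all genes tested, fitting the groups compared, or all 13 libraries for the interaction. A call needed at least a 2-fold change at an adjusted p-value under 0.01, and for the interaction an adjusted p-value under 0.05. Log2 CPM used a prior count of 1. Scripts were tested on simulated data. Alternatives were DESeq2 1.42.0, limma 3.58.1, other scalings, filters and call rules, a replicate block, lines 13 and 13a summed, a joint fit of all 13 libraries, and each library left out. The members and lists were chosen with earlier results of these data known. All 43 members are reported. Of the other lists, the gene with the smallest p in each state comparison was named. Levels of the 7 CDK inhibitors were also given, some in single libraries and some as ranges.

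The clone numbers paired the samples, since a primary culture and a line of 1 number come from 1 embryo by the account of the WT cultures. Deviations of lines and primary cultures from their group means correlated across genes at -0.033, 0.019 and -0.039 in WT clones 3, 4 and 5, and at 0.142, -0.283, 0.088 and 0.04 in lines 13, 13a, 14 and 15. Blocked values stand beside the results they move.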

Additional observations from a re-analysis of the deposited data

Results flagged for a closer look

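In 9 members the level in Prkd3-/- line 13 lay farther from the other 3 lines than the critical value of Dixon's test for 4 samples allows, the gap being 0.835 to 0.95 of the range of the lines. The test was run on CPM and not on log2 CPM, where a high value lies less far out. On the log2 scale, neither the G1/S nor the G2/M score of line 13 was flagged. Chance flags about 1 in 20 groups only if values are normally distributed, which was not tested, and the 43 members are not independent of each other. In the G1/S set the CPM of line 13 and of the other lines was 42.94 against 12.96 to 14.45 for Ccne2, 47.75 against 8.55 to 11.48 for Cdc6, 246.5 against 77.6 to 92.51 for Mcm4, 111.1 against 42.94 to 51.5 for Pcna and 25.94 against 6.59 to 9.55 for Gmnn. In the G2/M set it was 139.8 against 33.22 to 50.64 for Bub1b, 115.1 against 20.76 to 33.55 for Birc5, 58.16 against 5.924 to 11.29 for Mybl2 and 167.4 against 40.18 to 61.13 for Ube2c.

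Pcna was lower in every WT line and higher in every Prkd3-/- line than in the primary cultures of its genotype. The difference between these state effects was 1.238 (log2), with an adjusted p-value of 1 by edgeR's interaction term.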

How the results depend on the processing

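Between primary cultures, 1 G1/S member, Ccne1, passed an adjusted p-value under 0.05 by edgeR with no fold limit, against 0 called at the thresholds used. Leaving out 1 library at a time gave 0 to 2 called G2/M members there, the 2 being Cdc20 and Cenpe without Prkd3-/- clone 14. The G1/S score difference of 0.254 in that comparison was 0.028 when the median of the members replaced their mean. The other 104 values of single genes kept their direction and stayed uncalled. Some adjusted p-values between primary cultures did fall under 0.01, with changes below 2-fold. Without clone 14 they were 0.00163 for Ccne1 and 0.000377 for Cdk1 by edgeR, and with all libraries 0.00622 for Ccne1 by DESeq2. The other 287 summary values stayed within 1.5 times (counts) or within 1 SD between libraries (scores). Within that SD, the Prkd3-/- G2/M score difference of 0.361 turned to -0.054 without line 13 and to -0.002 without primary clone 14. Over all genes, edgeR called 361 in WT MEFs, 0 in Prkd3-/- MEFs, 0 in the interaction, 156 between primary cultures and 8 between lines, where DESeq2 called 1361, 190, 37, 836 and 178 and limma 198, 0, 0, 202 and 5. The newer quasi-likelihood method of edgeR, chosen after seeing the data as was leaving libraries out of the counts of groups that did not overlap, called 480, 1, 0, 206 and 20. With the replicate block the Log2FC of Gmnn in WT MEFs was -1.18 (adjusted p-value 0.343 by edgeR), that of Mcm2 in Prkd3-/- MEFs was 0.93 (0.992) and the interaction of Pcna was 1.15 (1). The block changed no call of a member. The joint edgeR fit of 13 libraries called 0 genes in WT MEFs, 1 in Prkd3-/- MEFs, 36 between primary cultures and 55 between lines, and 0 members in each. Members with an unadjusted p under 0.05 in it numbered 0, 3, 0 and 33, against 2, 1, 11 and 20 in the fits of the groups compared. Of all 21197 genes in the joint fit, 2199, 2634, 1030 and 3232 passed that limit. In the fits of the groups compared, 19.7, 6.56, 24.1 and 6.88% of all genes did, so the share of all genes moved in the same directions. The cause of these differences, and whether more libraries or more depth would yield calls, was not tested.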
